A study of Mus musculus with 24 samples.

Results

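Mice aged 16 months that had gone through contextual fear conditioning were compared with untrained mice of the same age. The comparison held 8 of the study's 24 hippocampal RNA samples, 4 labelled as fear conditioned at 16 months and 4 labelled as controls at 16 months, and the samples were taken by these labels alone. All mice were C57Bl/6, and the labels named no altered allele or drug in either group. Fear-conditioned mice spent 3 min in the training chamber and then got 1 foot shock of 0.7 mA for 2 s. Their hippocampi were frozen 1 h after treatment. Controls had no training and were otherwise treated alike. Each sample was hybridised to its own Agilent 1-colour array, and the labels did not say whether RNA of several mice was pooled, so the spread between arrays is that between these samples. The other 16 samples were mice aged 3 months, in 4 groups of 4, of which the fear-conditioned and control groups are used below to set the change at 16 months beside that at 3 months. In whole tissue, fewer cells of a type and less RNA per cell of that type cannot be told apart.

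Contextual fear conditioning is a task in which a rodent learns that a place predicts a shock, and the hippocampus is needed to form the memory of the place. Neurons that fire strongly during such training switch on immediate early genes within minutes, without new protein synthesis. Some of these genes encode transcription factors of the Fos, Egr and Nr4a families, and others act directly at synapses, such as Arc and Homer1. Stress hormone released during training acts on the same tissue through the glucocorticoid receptor, which induces genes such as Sgk1, Fkbp5 and Per1. The study used the comparison to ask how the response to training in the hippocampus changes with age.

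Levels are log2 of the processed signal minus the 75th percentile of all probes on the same array, so 0 is the level of a probe at that percentile. Changes are the mean of the fear arrays minus the mean of the control arrays. The 75th percentile of the processed signal was 1152 to 1732 on the fear arrays and 757 to 1667 on the control arrays, and 89.8 to 94.0% of probes on the fear arrays and 86.6 to 92.5% on the control arrays were well above background. Control array 2 stood apart: its median correlation with the other 7 arrays was 0.953, against 0.988 to 0.992 for the others, and its spike-in controls varied most between repeated spots, with a median coefficient of variation of 31.7%. Without it 6 of the 27 named calls lost the threshold, namely Kitl, Tnnt1, Klf15, Kantr, Rarres2 and Ccdc153, and their values without it are given below. The arrays of slides 1 and 2 and those of slides 3 and 4 formed pairs within each group, least clearly for control arrays 1 and 2. Over 254 marker genes of cell types and tissues the median absolute difference between fear arrays was 0.10 within the first such pair and 0.09 within the second, against 0.20 to 0.28 across the pairs. Between control arrays it was 0.24 and 0.13 within the pairs, against 0.27 to 0.32 across them. The labels do not explain the pairs. If they are nested in the groups, p-values that treat the 4 arrays of a group as independent may be too small, and if they are shared by both groups through the slides, too large. Fits of both kinds are given below. Each of the 4 slides carried 1 fear and 1 control array of this age. All 27 measured excitatory neuron markers of the hippocampus were above background on at least 1 of the 8 arrays. So were all but 77 of the 25669 genes, so this does not test the labelled tissue. The mean level of these markers was 1.28, 1.24, 1.13 and 1.13 on the fear arrays and 1.35, 1.24, 1.16 and 1.19 on the control arrays.

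Training at 16 months was followed by a change in 39 genes of 25669 tested, of which 34 rose and 5 fell. This is 0.152% of the genes (0.132% higher and 0.0195% lower in fear-conditioned mice) at an adjusted p under 0.05 (limma, Benjamini-Hochberg over all genes). At an unadjusted p under 0.05 there were 3593 genes, 1467 higher and 2126 lower. The median change of all genes was -0.08. Of the genes called, 27 had a gene symbol. The 23 of these that rose lay between 0.46 and 2.31 on the log2 scale, and the 4 that fell were Ccdc153, Rarres2, Tmem119 and Rab5c. In all 34 that rose, every fear array lay above every control array, which held for 799 of 25650 genes with no missing value (3.12%). The fear array was above the control array on all 4 slides in 2071 genes (8.07%) and below it in 4178 (16.3%). In 4 of the 5 that fell, every fear array lay below every control array (5.14% of all genes), and the fifth, Rarres2, had a missing value on control array 3. Of the 27, 18 had more than 1 probe on the array, 8 of these had a second probe moving the same way at an unadjusted p under 0.05, and 1, Sgk1, had a dimmer probe that moved the other way. The 8 were Adamts19, Ccnt2, Kcnq1ot1, Patj, Pdp1, Prkcd, Qser1 and Rarres2. No second probe did so for Adarb1, Hivep3, Kantr, Kitl, Klf15, Plekhg1, Ppp6r3, Rab37, Sgk1 or Synpo2. The plot of changes at both ages shows the 27 genes.

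**Figure D1:**
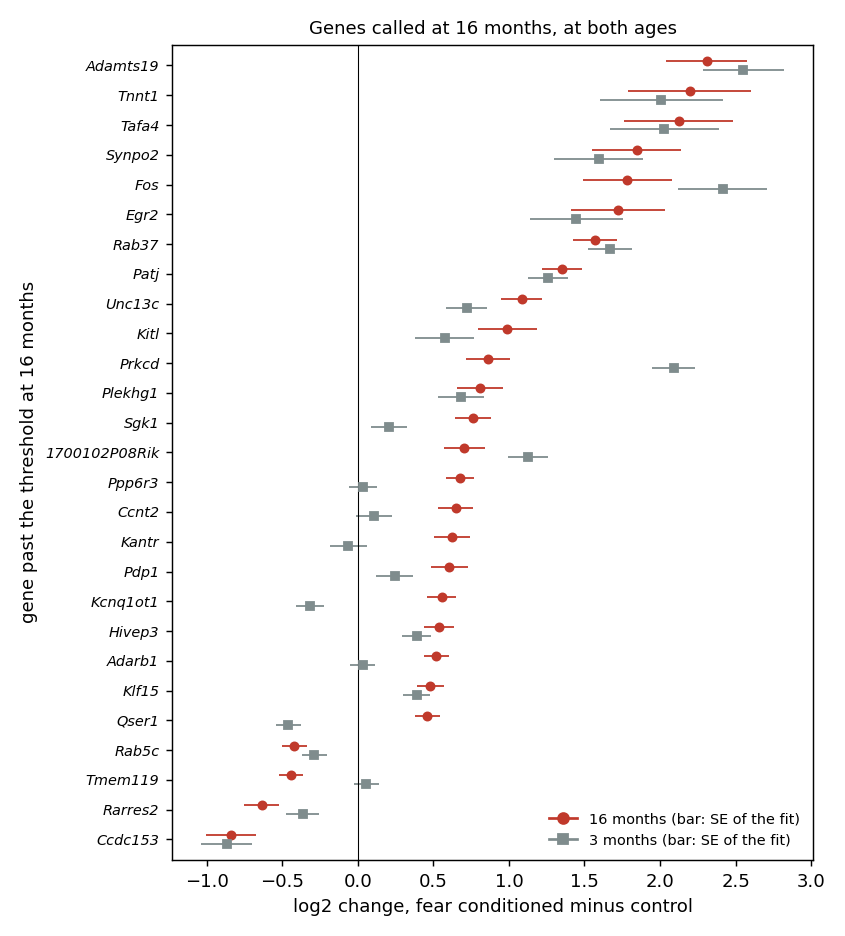
Log2 change in signal between fear-conditioned and control mice (horizontal axis) for the 27 genes with a symbol that passed the threshold at 16 months, with red circles for mice aged 16 months and grey squares for mice aged 3 months; bars are the SE of the fit and each group has 4 arrays. Adamts19, Tnnt1, Tafa4, Synpo2, Fos and Egr2 lie on the right at both ages, while Sgk1, Ppp6r3, Adarb1, Ccnt2, Kantr, Kcnq1ot1 and Qser1 have 3-month changes of 0.20 or less, left of their 16-month changes.

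Fos and Egr2 were the immediate early transcription factors that rose. Fos encodes a subunit of the AP-1 factor and is the most widely used mark of recently active neurons; Egr2 encodes a zinc finger factor of the early growth response family. Their start-site windows are shown because signals from neuronal activity are known to reach such promoters through CREB, which binds the cyclic AMP response element, and through serum response factor, which binds the CArG box. The windows span 250 bases before to 50 after the annotated start site, on the plus strand of GRCm38.p6, from RefSeq. Capitals mark TGACGT, read on either strand, and the CArG box. The first is at chr12:85473640-85473939 and the second at chr10:67537619-67537918, 1 of 5 annotated for Egr2.
Fos: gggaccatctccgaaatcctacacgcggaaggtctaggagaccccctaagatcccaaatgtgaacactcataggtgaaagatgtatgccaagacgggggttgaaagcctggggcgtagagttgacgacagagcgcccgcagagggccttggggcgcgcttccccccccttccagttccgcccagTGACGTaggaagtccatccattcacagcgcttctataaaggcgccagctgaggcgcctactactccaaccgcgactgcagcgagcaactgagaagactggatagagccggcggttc
Egr2: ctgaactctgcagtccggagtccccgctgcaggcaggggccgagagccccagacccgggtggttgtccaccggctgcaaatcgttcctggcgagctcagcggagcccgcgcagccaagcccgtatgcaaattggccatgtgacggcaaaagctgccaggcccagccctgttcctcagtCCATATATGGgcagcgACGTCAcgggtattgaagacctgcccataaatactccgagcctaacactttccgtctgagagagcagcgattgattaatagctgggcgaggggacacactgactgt
The Fos window held TGACGT 66 to 61 bases before the start site. The Egr2 window held a CArG box 72 to 63 bases before the start site and TGACGT on the other strand 56 to 51 bases before it. No motifs overlapped. Of the other 4 Egr2 windows, 1 held neither motif, 1 held a CArG box alone, and 2, at nearby start sites, held both. Among all 32851 promoter windows of the same length, 7.51% held TGACGT on either strand and 1.63% held a CArG box. Of the 28 immediate early transcription factors listed for this work, 22 had a window in the table, and 8 of these held TGACGT and 2 a CArG box in at least 1 window. Counted the same way, 8.37% and 1.81% of all genes with a window did. These matches describe letters and not binding.

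Fos levels were -0.81, -0.91, -0.78 and -0.65 on the fear arrays, against -2.78, -2.71, -2.40 and -2.40 on the control arrays. All fear arrays were above all control arrays, by a gap wider than the range within either group. Fos rose by 1.78 ± 0.29 (SE of the fit, n = 4 per group, adjusted p = 0.0119, limma), a 3.44-fold change. Its probe lies at chr12:86817900-86817959 of the mm9 build given in the headers of the later arrays. The adjusted p of Fos was 0.022 with the slide as block over all 24 arrays. Over the 16 control and fear arrays it was 0.129 with the block and 0.0815 without it. With array pairs as a random effect it was 0.0339, and without fear array 4 it was 0.0649.

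Egr2 levels were -0.24, -0.06, -0.68 and -0.63 on the fear arrays, against -2.25, -1.81, -2.28 and -2.17 on the control arrays. Fear arrays 1 and 2 were the highest, and again the groups did not overlap. Egr2 rose by 1.72 ± 0.31 (adjusted p = 0.0219, limma), a 3.3-fold change, at chr10:67004758-67004817 (mm9). The adjusted p of Egr2 was 0.0187 with the slide as block over all 24 arrays, and over 16 arrays it was 0.11 with the block and 0.101 without it. With array pairs as a random effect it was 0.0685. Its call was lost, at adjusted p between 0.0602 and 0.0897 (limma), when fear array 1, 2 or 4 or control array 3 or 4 was left out.

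The other members of the list of immediate early transcription factors did not pass the threshold. Of 28 measured, 2 rose, none fell, 17 had a change above 0, and the median was 0.15, against -0.08 for all genes. At an unadjusted p under 0.05, 8 were higher and 3 lower in fear-conditioned mice, where the shares of all genes were 5.72% and 8.28%. The groups did not overlap for 6 members with the fear arrays above and for 1 with them below. The shares of all genes were 3.12% and 5.14%. Egr1, the best studied member of its family in memory formation, had levels of 3.62, 3.62, 3.29 and 3.31 on the fear arrays and 2.87, 2.71, 2.74 and 2.58 on the control arrays. The groups did not overlap, yet its change of 0.74 ± 0.19 had an adjusted p of 0.119 (limma). Junb, a partner of Fos in AP-1, was at 4.01, 4.01, 3.97 and 3.99 on the fear arrays and 3.31, 3.67, 3.44 and 3.36 on the control arrays, a change of 0.55 ± 0.17 (adjusted p = 0.162, limma) with no overlap. Nr4a1, an orphan nuclear receptor, had a change of 0.54 ± 0.24 and Nr4a2 one of 0.37 ± 0.17. Egr3 and Egr4 were at 0.36 ± 0.17 and 0.32 ± 0.27. Fosl2 was at 0.24 ± 0.15. Fosb and Npas4, both induced in neurons by activity, had changes of -0.34 ± 0.25 and -0.10 ± 0.24, with overlapping groups. Klf2, a Krüppel-like factor, had the lowest change of the list, -1.14 ± 0.32 (adjusted p = 0.141, limma), with levels of 5.74, 4.80, 5.69 and 5.30 on the fear arrays and 6.49, 7.24, 5.98 and 6.36 on the control arrays. Control array 2 was the highest of these, and the groups did not overlap.

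Among 24 immediate early genes that act outside transcription, none passed the threshold (limma, adjusted p under 0.05), with 4 higher and 1 lower at an unadjusted p under 0.05 and a median change of 0.14. The shares of all genes at that unadjusted p were 5.72% higher and 8.28% lower. Without control array 2 the median was 0.06. Tiparp, a mono-ADP-ribosyltransferase, came closest: its levels were 0.47, 0.55, 0.56 and 0.57 on the fear arrays and -0.10, 0.07, 0.12 and 0.16 on the control arrays, without overlap, and its change was 0.48 ± 0.10 (adjusted p = 0.0523, limma). It passed in 7 of 26 other ways of processing, among them median scaling (adjusted p = 0.0128). Homer1, whose short induced form loosens the postsynaptic scaffold, was at 0.94, 1.00, 0.87 and 0.88 on the fear arrays and 0.85, 0.58, 0.28 and 0.14 on the control arrays, a change of 0.46 ± 0.14 (adjusted p = 0.167, limma). Arc, which drives removal of AMPA receptors from synapses, was at 3.51, 3.50, 3.11 and 3.04 on the fear arrays and 2.83, 2.73, 2.78 and 2.79 on the control arrays, a change of 0.51 ± 0.26 (adjusted p = 0.381, limma). Fear arrays 1 and 2 were the highest for Arc, and its groups did not overlap. Dusp1, a phosphatase that switches off MAP kinases, had a change of 0.32 ± 0.14, and Trib1, a pseudokinase, one of 0.30 ± 0.12, both without overlap. In this list the groups did not overlap for 6 members with the fear arrays above and for 1 with them below. The shares of all genes were 3.12% and 5.14%.

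Of 19 genes known to follow activity later than the immediate early wave, none passed, the median was 0.01, and 1 was higher and 1 lower at an unadjusted p under 0.05. The shares of all genes at that p were 5.72% and 8.28%. Bdnf, which encodes a growth factor of synaptic plasticity, had levels of 0.94, 0.94, 0.62 and 0.60 on the fear arrays and 0.91, 0.82, 0.66 and 0.67 on the control arrays, and its change was 0.01 ± 0.09. The array pairs differed more than the groups did. Spred1, an inhibitor of Ras signalling, had the smallest p of this list, at 0.32 ± 0.10 (adjusted p = 0.177, limma).

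**Figure D2:**
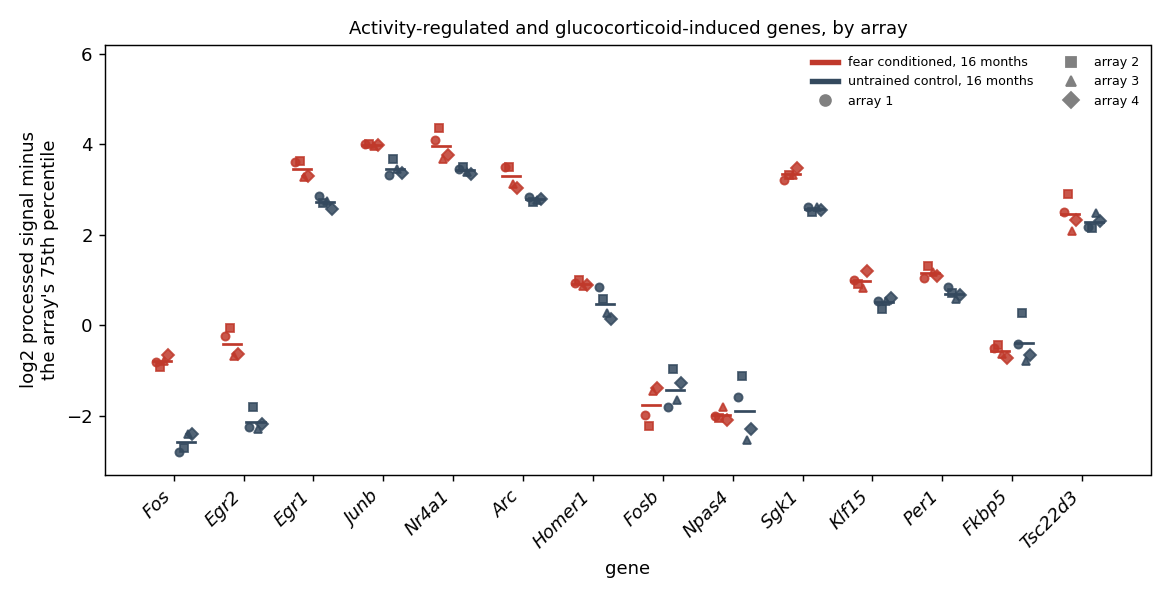
Level of 14 activity-regulated or glucocorticoid-induced genes on each of the 8 arrays (vertical axis: log2 processed signal minus the array's 75th percentile), with fear-conditioned mice in red left of controls in dark blue, a symbol for each array and a line at the group mean. Fos, Egr2, Egr1, Junb, Nr4a1, Arc, Homer1, Sgk1, Klf15 and Per1 show every fear array above every control array, and Fosb, Npas4, Fkbp5 and Tsc22d3 overlap; levels of different genes are not to be compared.

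Sgk1, a kinase induced by serum and by glucocorticoids, was the glucocorticoid-induced gene of the list that rose. Its levels were 3.22, 3.33, 3.31 and 3.47 on the fear arrays and 2.61, 2.52, 2.62 and 2.55 on the control arrays. The groups lay far apart relative to their spread, and Sgk1 rose by 0.76 ± 0.12 (adjusted p = 0.00869, limma), a 1.7-fold change, at chr10:21719390-21719449 (mm9). A second, dimmer probe of Sgk1 had a change of -0.94. The adjusted p of Sgk1 was 0.0151 with the slide as block over all 24 arrays, and over 16 arrays it was 0.0824 with the block and 0.048 without it. It was 0.0653 with array pairs as a random effect and 0.0552 without fear array 4. Klf15, a transcription factor also known as a target of the glucocorticoid receptor but not in the list, rose by 0.48 ± 0.09 (adjusted p = 0.0298, limma), with levels of 1.00, 0.92, 0.83 and 1.21 on the fear arrays and 0.54, 0.36, 0.54 and 0.61 on the control arrays. Klf15 was lost in 15 of 26 other ways of processing, among them without control array 2 (adjusted p = 0.0645).

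Of 23 glucocorticoid targets in the list, 1 (Sgk1) rose, none fell, 2 were higher and 0 lower at an unadjusted p under 0.05, and the median change was -0.01. Among all genes 0.132% rose, and 5.72% were higher and 8.28% lower at that unadjusted p. Per1, a clock gene that glucocorticoids also induce, was at 1.04, 1.31, 1.17 and 1.10 on the fear arrays and 0.86, 0.71, 0.58 and 0.67 on the control arrays, a change of 0.45 ± 0.11 (adjusted p = 0.098, limma) without overlap. Fkbp5, a co-chaperone that restrains the receptor, had a change of -0.17 ± 0.18 and levels of -0.50, -0.43, -0.63 and -0.72 on the fear arrays and -0.42, 0.28, -0.78 and -0.66 on the control arrays, where control array 2 was the highest. Tsc22d3 was at 0.17 ± 0.20, the metallothionein Mt2 at -0.14 ± 0.13, and Nfkbia, an inhibitor of NF-kappa B, at 0.25 ± 0.13.

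Clock genes lay above 0 as a list without a call. Of 20 measured, 14 had a change above 0, and the median was 0.23 (0.12 without control array 2). At an unadjusted p under 0.05, 6 were higher and 0 lower, where the shares of all genes were 5.72% and 8.28%. Nr1d2, a nuclear receptor that represses clock genes, had levels of 1.12, 1.30, 1.10 and 1.32 on the fear arrays and 0.53, 0.81, 0.93 and 0.80 on the control arrays, a change of 0.44 ± 0.10 (adjusted p = 0.0777, limma). Hlf, a PAR bZIP factor of the clock's output, had a change of 0.54 ± 0.16 (adjusted p = 0.147, limma). In 4 clock genes, among them Nr1d2, Hlf and Per1, every fear array lay above every control array. In 1 every fear array lay below. The shares of all genes were 3.12% and 5.14%.

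Rab37, Patj, Adamts19, Unc13c and Ppp6r3 had the smallest adjusted p among the genes with a symbol. Rab37, a small GTPase of secretory vesicles, was at -1.14, -1.07, -0.74 and -0.77 on the fear arrays and -2.69, -2.66, -2.35 and -2.28 on the control arrays. Rab37 rose by 1.57 ± 0.15 (adjusted p = 1.99e-05, limma), a 2.97-fold change at chr11:115023290-115023349 (mm9). Patj, a scaffold of the Crumbs polarity complex, was at -1.21, -1.22, -0.74 and -0.68 on the fear arrays and -2.62, -2.46, -2.02 and -2.14 on the control arrays. Patj rose by 1.35 ± 0.13 (adjusted p = 2.43e-05, limma). Unc13c, which encodes a Munc13 protein that primes synaptic vesicles for release, was at -0.67, -0.56, -0.43 and -0.47 on the fear arrays and -1.85, -1.56, -1.52 and -1.55 on the control arrays. Unc13c rose by 1.08 ± 0.13 (adjusted p = 6.11e-04, limma), and control array 1 was the lowest of the 8. Ppp6r3, a regulatory subunit of protein phosphatase 6, rose by 0.68 ± 0.09 (adjusted p = 0.0022, limma), with levels of 0.63, 0.69, 0.37 and 0.55 on the fear arrays and 0.03, -0.04, -0.15 and -0.30 on the control arrays. Adamts19, a member of a family of secreted metalloproteinases, rose by 2.31 ± 0.27 (adjusted p = 3.01e-04, limma). It was dim, at -3.95, -4.01, -3.38 and -3.22 on the fear arrays and -6.54, -5.75, -5.87 and -5.63 on the control arrays, and was above background on 4 fear and 3 control arrays. The size of its change depended on how dim signals were treated, at 1.09 in the deposited table, 0.80 with a normexp correction whose lowest values were floored and 0.65 with plain normexp. These 5 genes passed under every left-out array, with the slide as block over 16 or 24 arrays and with array pairs as a random effect. None of them passed with plain normexp, with averaged array pairs or over the 8 arrays at 16 months alone. Of 26 other ways of processing, Rab37, Patj and Unc13c were lost in 3, Adamts19 in 4 and Ppp6r3 in 5. The lowest change of any probe was 0.09 for Rab37, -0.22 for Patj and -0.26 for Ppp6r3.

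Tafa4, a small secreted protein of neurons, rose by 2.12 ± 0.36 (adjusted p = 0.0139, limma), with levels of -3.92, -3.78, -3.27 and -3.14 on the fear arrays and -6.94, -5.75, -4.83 and -5.09 on the control arrays. It was above background on 4 fear and 3 control arrays, and its change was 1.15 in the deposited table, 0.84 with the floored normexp and 0.76 with plain normexp. The call of Tafa4 was lost without fear array 3 (adjusted p = 0.057, limma) and without fear array 4 (adjusted p = 0.0847, limma). Kitl, the ligand of the Kit receptor, rose by 0.99 ± 0.20 (adjusted p = 0.0406, limma), and its control array 2 was the lowest, at -2.57. Without that array the change of Kitl was 0.76 (adjusted p = 0.0626, limma). A second probe of Kitl had a change of -0.71. Prkcd, the delta form of protein kinase C, rose by 0.86 ± 0.14 (adjusted p = 0.0122, limma), and its groups were 1.22, 1.13, 1.52 and 1.57 on the fear arrays and 0.57, 0.65, 0.30 and 0.48 on the control arrays. Plekhg1 rose by 0.81 ± 0.15 (adjusted p = 0.0271, limma). Pdp1, a phosphatase that activates pyruvate dehydrogenase, rose by 0.61 ± 0.12 (adjusted p = 0.0494, limma), the call nearest the threshold among the named genes.

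Tnnt1 and Synpo2 varied widely between array pairs. Tnnt1, the slow skeletal form of troponin T, was at 1.11, 1.22, 2.17 and 2.04 on the fear arrays and -1.69, -1.48, 0.47 and 0.46 on the control arrays. In each group arrays 3 and 4 were higher than arrays 1 and 2 by more than any difference within a pair, while on every slide the fear array was above the control array. Tnnt1 rose by 2.20 ± 0.41 (adjusted p = 0.0261, limma), with adjusted p = 0.0604 without control array 2. Synpo2, an actin-binding protein, followed the same order, at 0.75, 0.60, 1.49 and 1.58 on the fear arrays and -1.56, -1.34, -0.02 and -0.05 on the control arrays, and rose by 1.85 ± 0.29 (adjusted p = 0.00869, limma).

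Rab37, Prkcd, Plekhg1, Tnnt1, Synpo2 and Adarb1 were also 6 of the 24 measured genes in the list of markers of the thalamus, a region that borders the hippocampus. Adarb1 encodes an adenosine deaminase that edits glutamate receptor transcripts, and it rose by 0.52 ± 0.08 (adjusted p = 0.00869, limma). Of the thalamus list, 6 rose and none fell, 20 were above 0, 17 were higher at an unadjusted p under 0.05, and 13 had all fear arrays above all control arrays. Among all genes 0.132% rose, 5.72% were higher at that p and 3.12% had all fear arrays above all control arrays. The median change of the thalamus list was 0.84, and it was 0.79, 0.45, 0.80 and 0.93 within slides 1, 2, 3 and 4. Without control array 2, 7 rose and the median was 0.81. The list's summed signal, in units of the 75th percentile, was 51.7 to 65.5 on the fear arrays and 37.5 to 45.6 on the control arrays, and no member was below background on all 8 arrays. The mean level was -0.27, -0.23, 0.30 and 0.31 on the fear arrays and -1.16, -1.01, -0.53 and -0.56 on the control arrays, so it followed the array pairs as well as the groups. The list was drawn up with earlier results of these data known, so its count is not independent evidence of a direction. Of 2 defining thalamic markers chosen after their values were seen, Tcf7l2 was at 0.62, 0.69, 1.43 and 1.36 on the fear arrays and -1.05, -0.79, 0.80 and 0.46 on the control arrays, a change of 1.17 ± 0.29 (adjusted p = 0.106, limma). The other, Slc17a6, the vesicular glutamate transporter of thalamic neurons, was at 0.69, 0.02, 1.12 and 1.27 on the fear arrays and -0.34, -2.30, 0.22 and -0.11 on the control arrays, a change of 1.41 ± 0.38 (adjusted p = 0.126, limma). The groups overlapped in both of these markers. The share of the rise in these 6 genes that goes with thalamic tissue in the samples was not tested.

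**Figure D3:**
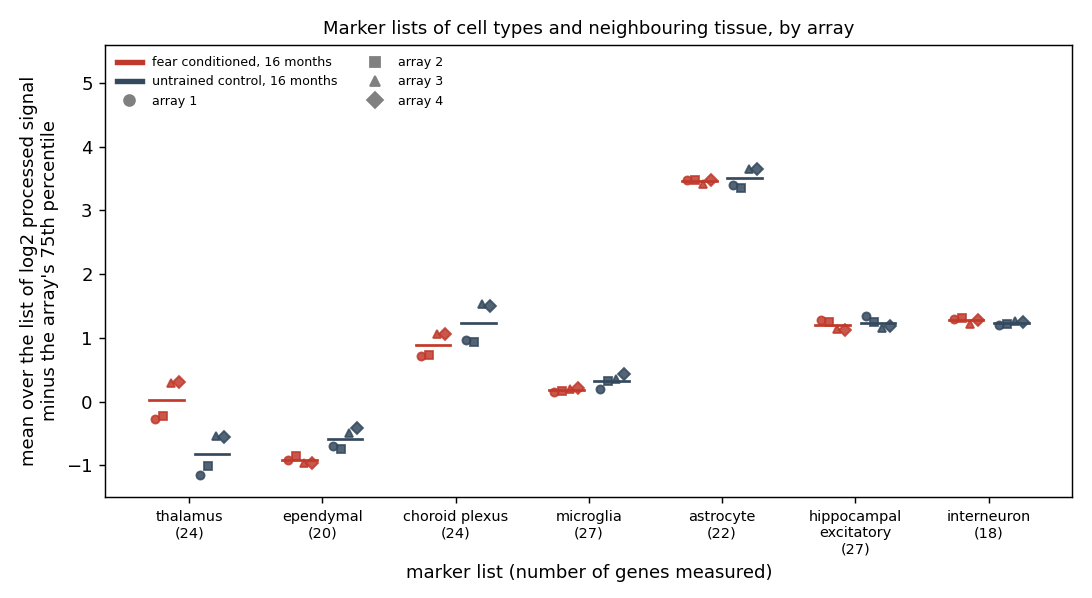
Mean level over the genes of 7 marker lists on each of the 8 arrays (vertical axis: mean of log2 processed signal minus the array's 75th percentile), with fear-conditioned mice in red left of controls in dark blue, a symbol for each array and a line at the group mean. The thalamus list lies higher and the ependymal list lower on all 4 fear arrays, arrays 3 and 4 lie above arrays 1 and 2 in the thalamus and choroid plexus lists of both groups, and the excitatory neuron and interneuron lists overlap.

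Ccnt2, a cyclin of the elongation factor P-TEFb, rose by 0.65 ± 0.12 (adjusted p = 0.0219, limma), and its 3 probes all moved the same way. Hivep3, a zinc finger factor, rose by 0.54 ± 0.10 (adjusted p = 0.0219, limma), and Qser1, a nuclear protein, by 0.46 ± 0.08 (adjusted p = 0.0209, limma). The lowest change of any probe was -0.18 for Hivep3 and -0.46 for Qser1. Kcnq1ot1, the paternally expressed antisense RNA of the imprinted Kcnq1 locus, was at 1.25, 1.31, 1.26 and 1.31 on the fear arrays and 1.00, 0.71, 0.61 and 0.59 on the control arrays. It rose by 0.55 ± 0.09 (adjusted p = 0.0132, limma), and the fear arrays lay close together. Kantr, a long noncoding RNA of the X chromosome, rose by 0.62 ± 0.12 (adjusted p = 0.034, limma, and 0.052 without control array 2), and 1700102P08Rik, of unknown function, by 0.71 ± 0.13 (adjusted p = 0.0287, limma). Of 30 histone deacetylases and acetyltransferases none passed, the median was -0.06, and 1 was higher and 1 lower at an unadjusted p under 0.05. The shares of all genes at that p were 5.72% and 8.28%. Sirt1, the deacetylase of smallest p, had a change of 0.34 ± 0.08 (adjusted p = 0.0955, limma).

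Of the 4 genes with a symbol that fell, 2 are ependymal markers and 1 a microglial marker. Ccdc153, a gene of ciliated ependymal cells, which line the ventricles, was at 1.64, 1.70, 1.09 and 1.06 on the fear arrays and 2.03, 2.13, 2.34 and 2.34 on the control arrays. Ccdc153 fell by 0.84 ± 0.17 on the log2 scale (adjusted p = 0.0445, limma), and fear arrays 3 and 4 were the lowest. Rarres2, which encodes the chemoattractant chemerin and is high in ependymal cells, was at 1.31, 1.09, 1.39 and 1.31 on the fear arrays and 1.71, 2.08 and 1.95 on 3 control arrays, and fell by 0.64 ± 0.12 (adjusted p = 0.0281, limma). Its missing control value was an outlier spot. Of 20 ependymal markers, 2 fell and none rose, 19 were below 0, 10 were lower at an unadjusted p under 0.05, and 9 had all fear arrays below all control arrays. Among all genes 0.0195% fell, 8.28% were lower at that p and 5.14% had all fear arrays below all control arrays. This list, like the others, was drawn up with earlier results of these data known. Its counts are therefore not independent evidence of a direction. The median of the ependymal list was -0.42, and it was -0.24, -0.17, -0.61 and -0.53 within slides 1, 2, 3 and 4. The list's summed signal was 18.5 to 20.9 on the fear arrays and 24.9 to 31.6 on the control arrays. Odf3b and Tekt1, proteins of motile cilia, had changes of -0.60 ± 0.15 (adjusted p = 0.106) and -0.67 ± 0.18 (adjusted p = 0.132, both limma). Without control array 2, none of the ependymal list passed in either direction (adjusted p = 0.0545 for Ccdc153 and 0.0804 for Rarres2, limma), and its median was -0.48.

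Markers of the choroid plexus, the epithelium next to the ependyma that secretes cerebrospinal fluid, had a like median. Of 24 measured, none passed, 20 were below 0, 7 were lower at an unadjusted p under 0.05 (8.28% of all genes), and the median was -0.44. Their summed signal was 119 to 144 on the fear arrays and 130 to 210 on the control arrays. Trpv4, a cation channel of that epithelium, had a change of -0.69 ± 0.20 (adjusted p = 0.15, limma) and Wdr86 one of -0.66 ± 0.23 (adjusted p = 0.215, limma). How far a differing share of ventricular tissue moved with the ependymal calls was not tested.

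Tmem119, a membrane protein specific to microglia in the brain, was at 0.52, 0.39, 0.47 and 0.33 on the fear arrays and 0.89, 0.80, 0.82 and 0.95 on the control arrays. Tmem119 fell by 0.44 ± 0.08 (adjusted p = 0.0232, limma), at chr5:114243962-114244021 (mm9), with no overlap. Its call was lost, at adjusted p between 0.057 and 0.141 (limma), when fear array 2, 3 or 4 or control array 4 was left out. Tmem119 was the 1 of 27 measured microglia markers that fell, and none rose. In the list 20 were below 0, and the median was -0.17. At an unadjusted p under 0.05, 7 were lower and 0 higher, where the shares of all genes were 8.28% and 5.72%. In 7 members all fear arrays lay below all control arrays, against 5.14% of all genes. The microglia list was also drawn up with earlier results known, so these counts are not independent evidence of a direction. C1qb, a subunit of complement C1q, had a change of -0.46 ± 0.16 (adjusted p = 0.207, limma), and Selplg, a selectin ligand, one of -0.33 ± 0.12 (adjusted p = 0.222, limma). The list's summed signal was 67.1 to 80.3 on the fear arrays and 71.6 to 85.2 on the control arrays, which overlap. Rab5c, a GTPase of early endosomes found in most cells, was at 3.32, 3.25, 3.31 and 3.21 on the fear arrays and 3.71, 3.64, 3.64 and 3.78 on the control arrays and fell by 0.42 ± 0.08 (adjusted p = 0.0392, limma). Of 26 other ways of processing, the call was lost in 16 for Rab5c and in 12 for Tmem119.

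No gene passed in the other lists (limma, adjusted p under 0.05), and their medians were between -0.25 and 0.15. Among all genes 5.72% were higher and 8.28% lower at an unadjusted p under 0.05. Of 28 antigen presentation and interferon genes 23 were below 0 and 4 were lower at an unadjusted p under 0.05. Tapbp, which loads peptide onto class I molecules, had a change of -0.35 ± 0.09 (adjusted p = 0.116, limma), and Lgals3bp, a secreted galectin-binding protein, one of -0.53 ± 0.14 (adjusted p = 0.126, limma). Of 28 oligodendrocyte and myelin markers 25 were below 0 and 8 were lower at an unadjusted p under 0.05, with a median of -0.18. Cnp, a myelin enzyme, was at -0.33 ± 0.10 and Olig2, the factor that specifies the lineage, at -0.33 ± 0.10. Of 22 astrocyte markers 4 were lower, with a median of -0.08, and Gfap, the filament protein of reactive astrocytes, was at -0.10 ± 0.14. Of 24 endothelial and mural markers 1 was higher and 4 lower, with a median of -0.13, and Acta2, smooth muscle actin, was at -0.41 ± 0.11 (adjusted p = 0.12, limma). The 5 blood cell markers had a median of -0.25 and the 8 habenula markers one of -0.18.

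The 27 excitatory neuron markers of the hippocampus had a median of -0.10, with 2 higher and 4 lower at an unadjusted p under 0.05, and Pou3f1, a factor of CA1 neurons, was at -0.44 ± 0.14 (adjusted p = 0.183, limma). Of all genes 5.72% were higher and 8.28% lower at an unadjusted p under 0.05. The 18 interneuron markers had a median of 0.02, with 2 higher and 2 lower. The neuropeptide genes Sst and Npy were at -0.33 ± 0.11 and -0.38 ± 0.14. They were the 2 interneuron markers with all fear arrays below all control arrays, against 5.14% of all genes. The 39 genes for glutamate receptors and postsynaptic scaffolds had a median of -0.03, with 3 higher and 2 lower, and the AMPA receptor subunit Gria4 was at 0.37 ± 0.10 (adjusted p = 0.137, limma). Of the 14 neocortex markers 11 were above 0, with a median of 0.15, among them Cux2 at 0.34 ± 0.14 and Rorb at 0.44 ± 0.22, and the 15 striatum markers had one of 0.03. The 14 formins, which nucleate actin filaments, had a median of 0.01, and Fmn2 was at -0.69, -0.64, -0.97 and -0.97 on the fear arrays and -0.68, -0.58, -0.96 and -0.94 on the control arrays, a change of -0.03 ± 0.12. Prkca, the alpha form of protein kinase C, was at -0.11 ± 0.15. With median scaling, which moved the median of all genes to -0.01, the medians of the glucocorticoid, histone enzyme and glutamate receptor lists turned positive, at 0.06, 0.01 and 0.03.

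Of 83 cytosolic ribosomal protein genes 71 were below 0, 20 were lower and 1 higher at an unadjusted p under 0.05, and the median was -0.17. The shares of all genes at that p were 8.28% lower and 5.72% higher. Rpl8 was the nearest to a call, at 5.65, 5.64, 5.56 and 5.63 on the fear arrays and 6.07, 6.60, 5.98 and 6.17 on the control arrays, a change of -0.59 ± 0.12 (adjusted p = 0.0523, limma), and it passed in 7 of 26 other ways of processing. Of 78 oxidative phosphorylation genes 58 were below 0, 18 were lower and 0 higher, and the median was -0.10, with Cox8a, a subunit of cytochrome oxidase, at -0.54 ± 0.15 (adjusted p = 0.126, limma). With median scaling the medians of both lists were -0.11 and -0.03, and with quantile normalization -0.03 and 0.00. Of 26 genes of the heat shock or unfolded protein response 1 was higher and 2 lower, with a median of -0.08. Pdia4, of the endoplasmic reticulum, was at -0.48 ± 0.14 and the cytosolic co-chaperone Dnajb1 at 0.26 ± 0.10.

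The changes at 16 months were set beside those at 3 months, where the same training was followed by far more calls. At 3 months 11113 genes (43.3%) passed, 3370 higher (13.1%) and 7743 lower (30.2%), and the change itself differed between the ages in 6185 genes (24.1%), 4107 with the higher change at 16 months and 2078 with the lower. The median change of all genes was -0.34 at 3 months, against -0.08 at 16 months, so these counts depend on the scaling. With median scaling the medians were -0.20 at 3 months and -0.01 at 16 months, 4290 genes were higher and 5403 lower at 3 months, and the change differed in 2762 upwards and 2303 downwards. Of the 34 genes that rose at 16 months, 22 also rose at 3 months, which is 64.7% of the 16-month list and 0.653% of the 3-month list. Of the 5 that fell, 4 also fell at 3 months. With median scaling the 3-month fall passed for Ccdc153 (-0.73, adjusted p = 0.003, limma). It did not pass for Rarres2 (-0.23, adjusted p = 0.148) or Rab5c (-0.15, adjusted p = 0.24, both limma). The 2 ages have no arrays in common, but their control and fear arrays were on the same slides and shared an estimate of the spread.

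In Fos the change was 1.78 ± 0.29 at 16 months and 2.41 ± 0.29 at 3 months, and in Egr2 it was 1.72 ± 0.31 and 1.45 ± 0.31. The difference between ages was -0.63 ± 0.42 (adjusted p = 0.312) for Fos and 0.28 ± 0.44 (adjusted p = 0.705, both limma) for Egr2, and neither passed. Rab37, Patj, Adamts19, Unc13c, Synpo2, Tnnt1 and Tafa4 rose at both ages, with differences between -0.24 and 0.36 that did not pass. Prkcd rose at both ages but less at 16 months, by 0.86 ± 0.14 against 2.09 ± 0.14 at 3 months, a difference of -1.23 ± 0.20 (adjusted p = 1.82e-04, limma).

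For 14 of the 34 genes that rose and 1 of the 5 that fell, the change differed between the ages. Since these genes were chosen for their change at 16 months, this count leans towards larger changes at that age. Sgk1 rose at 16 months and had a change of 0.20 ± 0.12 at 3 months, a difference of 0.56 ± 0.17 (adjusted p = 0.0191, limma) that did not pass with median scaling (0.48, adjusted p = 0.0956). Ppp6r3 was at 0.03 ± 0.09 at 3 months (difference 0.64, adjusted p = 0.00119, limma) and Adarb1 at 0.03 ± 0.08 (difference 0.49, adjusted p = 0.0039, limma). Qser1 and Kcnq1ot1 rose at 16 months and fell at 3 months, where their changes were -0.46 ± 0.08 and -0.32 ± 0.09, with differences of 0.92 (adjusted p = 1.50e-05) and 0.87 (adjusted p = 8.71e-05, both limma). With median scaling both differences passed, at 0.84 and 0.80, while the 3-month fall passed for Qser1 (adjusted p = 0.0243) and not for Kcnq1ot1 (adjusted p = 0.248). Ccnt2 and Kantr differed by 0.54 and 0.69, and with median scaling by 0.47 (adjusted p = 0.0983, limma) and 0.61 (adjusted p = 0.056, limma). Tmem119 was at 0.06 ± 0.08 at 3 months, a difference of -0.50 ± 0.11 (adjusted p = 0.00289, limma).

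Several genes that changed at 3 months had no call at 16 months, and for those named here the difference passed. Prkca, at -0.11 at 16 months, rose by 1.32 at 3 months (difference -1.43, adjusted p = 5.60e-05, limma). Gfap, at -0.10, rose by 1.33 at 3 months (difference -1.42, adjusted p = 5.18e-05, limma). Fmn2, at -0.03, rose by 0.81 at 3 months (difference -0.84, adjusted p = 0.00146, limma). Fkbp5, at -0.17, rose by 0.95 at 3 months (difference -1.12, adjusted p = 0.00281, limma). Mt2, at -0.14, fell by 1.73 at 3 months (difference 1.59, adjusted p = 5.16e-06, limma). Of 24 choroid plexus markers 23 fell at 3 months, with a median of -2.94 against -0.44 at 16 months, and the change differed between the ages in 22, with the fall smaller at 16 months. Of 83 ribosomal protein genes 72 fell at 3 months, and in 56 the change differed and was the higher one at 16 months. Among 24 thalamus markers, 14 rose and 1 fell at 3 months, and the change differed upwards at 16 months in 2 and downwards in 2. Of all genes 13.1% rose and 30.2% fell at 3 months, and the change differed between the ages in 24.1%. The median change of all genes at 3 months was -0.34, so the counts of these lists depend on the scaling.

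A further 12 of the 39 calls were features without a symbol in the reference table, 11 higher and 1 lower, at 0.189% of 6347 such features against 0.140% of the 19322 with a symbol. Chosen after their values were seen, BU920841, an expressed sequence tag at chr12:117384455-117384514 (mm9), was at -2.18, -1.87, -1.39 and -1.49 on the fear arrays and -4.60, -4.85, -2.89 and -2.76 on the control arrays. It rose by 2.04 ± 0.38 (adjusted p = 0.0261, limma) and followed the array pairs in the manner of Tnnt1. AI846867, at chr1:121549460-121549519 (mm9), was at 0.71, 0.76, 1.09 and 1.14 on the fear arrays and 0.34, 0.31, 0.27 and 0.20 on the control arrays and rose by 0.64 ± 0.09 (adjusted p = 0.00451, limma). AK042564 rose by 1.20 but was not well above background on any array of either group, so that value has no interpretable size.

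The count of calls moved with the arrays fitted, the block and single arrays. With the slide as block over all 24 arrays, 79 genes passed, 38 of the 39 among them, and of the named genes Ccdc153 alone was lost. With slides 1 and 2 against slides 3 and 4 as a block shared by the groups, 98 passed, all 39 among them. Both of these fits were chosen after seeing the data. Over the 16 control and fear arrays, 14 passed without a block and 17 with the slide as block, and with that block 11 of the 39 remained, all of them higher. Of the 27 named genes these were Rab37, Patj, Adamts19, Unc13c, Ppp6r3, Synpo2, Tafa4, Tnnt1 and 1700102P08Rik. With array pairs nested in the groups as a random effect 10 passed, all of them among the 39, and the 8 with a symbol were Rab37, Patj, Adamts19, Unc13c, Ppp6r3, Synpo2, Fos and Prkcd. With the array pairs averaged, none passed by limma, with 2 values per group and 1453 genes at an unadjusted p under 0.05. Without fear array 4, 6 genes passed, and Rab37, Patj, Adamts19, Unc13c and Ppp6r3 were those with a symbol. Without fear array 2, fear array 3 or control array 4 the counts were 16, 20 and 18. Without control array 1, 132 passed, and without control array 2, 54, of which 31 were among the 39. All 4 genes with a symbol that fell lost their call with the slide as block over 16 arrays and with the nested pairs. With median scaling 34 genes passed as higher and 1 as lower, against 34 and 5 as reported. The plot of calls by processing gives every count.

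**Figure D4:**
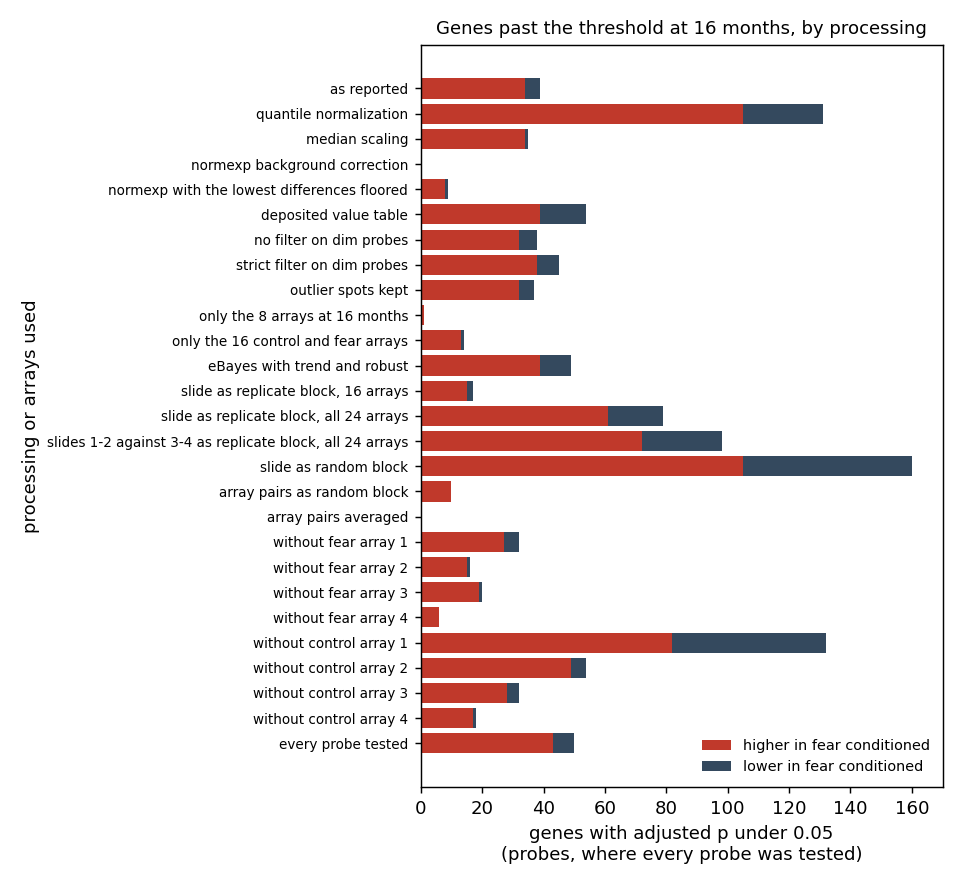
Number of genes with an adjusted p under 0.05 for fear-conditioned against control mice at 16 months (horizontal axis) under each way of processing or set of arrays (vertical axis), with genes higher in fear-conditioned mice in red and lower ones in dark blue. The top bar is the count of 39 as reported; counts reach 160 with the slide as random block and are 0 with normexp background correction and with averaged array pairs.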

How the data were processed

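The deposited arrays were read out with Feature Extraction 9.5.3.1 (Agilent), per the file headers, and give spot intensity: a processed signal (background subtracted, not scaled between arrays), mean and background signals, and outlier and background marks. The submitters' processing notes name limma. The deposited value table has no stated scale and was taken as log2. Each of its columns followed its own array's background-subtracted signal in rank (Spearman 0.999 to 1.00, against 0.925 to 0.997 with the next array), with column medians of 8.61 to 8.63, as between-array normalization gives. It served as an alternative.

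The processed signal was taken to log2 minus each array's 75th percentile. Control spots were left out, outlier spots set to missing, spots of a probe averaged, and probes not well above background, as marked by the scanner software, on more than 20 of the 24 arrays were dropped. Probes were named by accession (25607), symbol (6363) or synonym (1784) in the RefSeq table, and 7420 kept the file's name. The probe of highest mean stood for each gene. One limma model (version 3.58.1, with statmod 1.5.0 and R 4.3.3) took the 6 group means over 24 arrays (18 residual degrees of freedom), two-sided, with Benjamini-Hochberg adjustment over 25669 genes and a threshold of 0.05. The 3-month groups not compared here also entered this estimate of the spread. Their arrays were on slides 5 and 6. Their 75th percentile was 3101 to 8369, against 757 to 2137 on the control and fear arrays. On them 75.5 to 81.7% of probes were well above background, against 86.6 to 94.0%. Without these groups 14 genes passed. Simulated data with known changes were used to check the code. The number of arrays limits the precision.

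The genes named are all those called with a symbol, a panel of 23 genes and up to 4 of smallest p from each of 25 lists, not all of which are printed. The comparison, the panel and the lists were chosen with earlier results of these data known. Slide and replicate number coincide, and the deviations of the fear and control arrays of a slide correlated at 0.47, 0.18, -0.13 and 0.17, so a slide block was an alternative and not part of the reported fit.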

Additional observations from a re-analysis of the deposited data

Results flagged for a closer look

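Single arrays stood apart from the other 3 of their group in 5 of 205 groups of values examined, where about 1 in 20 would by chance. Control array 1 was low for Unc13c (-1.85), Plekhg1 (-0.70) and Trib1 (-0.95). Control array 2 was low for the mean of the neocortex markers (-0.79) and high for the mean of the histone deacetylases and acetyltransferases (0.63). 

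The change between fear-conditioned and control mice differed between 16 and 3 months, at an adjusted p under 0.05 (limma), in 27 of the 78 genes named, where 24.1% of all genes did. With median scaling 24 of the 27 passed, without Sgk1, Ccnt2 and Kantr. Given as the change at 16 months minus that at 3 months, the difference was positive for Ppp6r3 (0.64), Sgk1 (0.56), Adarb1 (0.49), Kcnq1ot1 (0.87), Qser1 (0.92), Ccnt2 (0.54) and Kantr (0.69), all of them called higher at 16 months. It was also positive for Mt2 (1.59), Tiparp (0.72), Trib1 (0.66), Tekt1 (1.60), Trpv4 (2.19), Wdr86 (2.60), Cux2 (0.74), Hlf (0.99) and Dnajb1 (0.74). It was negative for Prkcd (-1.23), Tmem119 (-0.50), Fkbp5 (-1.12), Fmn2 (-0.84), Prkca (-1.43), Gfap (-1.42), Olig2 (-0.55), Acta2 (-0.89), Sst (-0.53), Gria4 (-0.41) and Pdia4 (-0.94).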

How the results depend on the processing

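The 39 calls became 131 with quantile normalization (37 of the 39 among them), 160 with slide as a random effect, 10 with nested array pairs as a random effect, 14 over the 16 control and fear arrays alone, 17 over those 16 with a replicate block by slide, and 1, Fos, over the 8 arrays at 16 months alone. Over all 24 arrays the replicate block gave 79 by slide and 98 by slides 1 and 2 against 3 and 4, both chosen after seeing the data. Leaving out 1 array at a time gave 6 to 132. They became 0 with averaged array pairs (limma, 1453 genes at an unadjusted p under 0.05) and 0 with normexp (988 genes). Plain normexp put the 5th percentile of log2 signal at 8.26 to 10.5 on 4 arrays, against 5.96 to 6.59 on the others. An alternative chosen after seeing the data, which first raised the lowest 0.1% of values on each array, put it at 5.90 to 6.39 on all arrays and gave 9 calls. Other settings gave 35 to 54 calls, and 25 of the 39 were among the 35 with median scaling. The 50 calls with every probe tested were probes. With plain normexp the changes were 1.00 for Rab37, 0.84 for Patj, 0.40 for Ppp6r3, 0.35 for Kantr and 0.14 for 1700102P08Rik. Genes whose change differed between ages numbered 2008 with normexp and 0 with averaged pairs (5248 genes at an unadjusted p under 0.05), against 6185 of 25669 as reported. With every probe tested, the change differed in 10031 of 38762 probes.

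The 27 named calls kept their direction under all settings, except 1700102P08Rik with the floored normexp (-0.088). No replicate block reversed any of the 78 named genes. Npas4 turned to 0.079 and Prkca to 0.085 with the deposited table, Mt2 to 0.21 there and to 0.025 with quantile normalization, and Fmn2 to 0.034 with median scaling. Bdnf turned to -0.034 with normexp, -0.026 with the floored normexp and -0.030 with the deposited table. Over arrays left out in turn the range was -0.32 to 0.15 for Npas4, -0.045 to 0.068 for Bdnf, -0.30 to 0.050 for Fkbp5, -0.090 to 0.040 for Fmn2, -0.24 to 0.060 for Prkca and -0.21 to 0.050 for Gfap. The cause of these shifts was not tested.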
